A study of Mus musculus with 16 samples.

Results

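The Trem receptor genes Trem1, Trem3, Treml4, Treml2, Trem2 and Treml1 lie in this order on the plus strand of mouse chromosome 17. Their open chromatin was described from ATAC-Seq peaks, an assay in which the Tn5 transposase inserts sequencing adapters into accessible DNA. The 6 genes were chosen with earlier results of these data known, so the window is not an unselected one. Its peaks were then taken by gene name and position: all peaks from 100 kb before the first of the 6 genes to 100 kb past the last, chr17:48132768-48467176 in mm10 with GENCODE M21 gene models, a window of 334 kb. The 49000 most significant peaks of each library were merged over all 16 libraries into 89975 regions, of which 25 lay in the window. These 25 are called sites here, and 14 of them lay in a Trem or Treml gene or within 3 kb of one. Each site is named by the nearest start of a protein-coding transcript and the signed distance of its median summit from that start, and as a promoter where it reaches within 500 bp of the start.

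The cells were mouse progenitors from fetal liver, depleted of lineage-positive cells, made immortal by a HoxB8 that estrogen switches on and grown with estradiol. The hi-77+/+ cells keep the distal Gata2 enhancer for which they are named, and the hi-77-/- cells lack it. All groups were infected with a GFP-expressing retrovirus: hi-77+/+ empty and hi-77-/- empty received the vector alone, hi-77-/- GATA2 received HA-tagged GATA2, and hi-77-/- 9aa-Ins received a GATA2 variant with an insertion between its zinc fingers. The paper describes sorting of GFP-positive cells before RNA was isolated, and its ATAC-Seq methods do not mention sorting. The paper calls the 4 ATAC-Seq libraries of each hi-77-/- group biological replicates, while the labels name no separate lines or cultures. With 4 libraries in each of the 4 groups, p-values measure the spread between these libraries, which for hi-77+/+ empty may be technical. The enhancer genotype and the cell line cannot be told apart.

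TREM proteins are cell surface receptors with an immunoglobulin-like domain, known mainly from myeloid cells. Trem1, Trem2 and Trem3 have no signaling motif of their own and pair with the adaptor DAP12, the product of Tyrobp, which recruits the kinase Syk. Trem1 amplifies inflammatory responses of neutrophils and monocytes, Trem2 binds lipids and lipoproteins on macrophages and microglia, and Treml1 is a receptor of platelets and megakaryocytes.

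The sequences below lie at the summits of the sites on which the results turn, and they show which short motifs of blood transcription factors are present there. Each is taken from a 200-base window of the GRCm38 (mm10) reference centred on the median summit, cut where it ran into an annotated exon, so that no UTR is shown. Capitals mark matches on either strand to the GATA motif (AGATAA as well as AGATAG, and then TGATAA as well as TGATAG), to the ETS core spelled GGAA, to the RUNX motif spelled TGTGGT, to the AP-1 motif spelled TGANTCA, to the C/EBP motif spelled TTGCNNAA or to the E-box spelled CANNTG, and matches of different motifs may share bases. The other 2 called sites, B430306N03Rik +8.3 kb and Oard1 +6.9 kb, lie in exons and are not printed.
Trem1 -1.9 kb, chr17:48230774-48230973, plus strand: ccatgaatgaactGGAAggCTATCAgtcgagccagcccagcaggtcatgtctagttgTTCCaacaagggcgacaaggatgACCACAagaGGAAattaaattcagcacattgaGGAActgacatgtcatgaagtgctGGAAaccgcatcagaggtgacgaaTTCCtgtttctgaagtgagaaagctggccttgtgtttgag
Trem1 promoter, chr17:48232595-48232738, plus strand: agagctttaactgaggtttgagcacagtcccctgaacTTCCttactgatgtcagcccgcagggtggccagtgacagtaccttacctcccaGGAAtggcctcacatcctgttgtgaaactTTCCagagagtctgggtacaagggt
Trem1 +2.0 kb, chr17:48234672-48234871, plus strand: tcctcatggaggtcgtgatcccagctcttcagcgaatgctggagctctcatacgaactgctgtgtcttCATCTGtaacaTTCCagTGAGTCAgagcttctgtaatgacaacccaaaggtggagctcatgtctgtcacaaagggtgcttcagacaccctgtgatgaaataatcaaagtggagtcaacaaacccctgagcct
Trem3 promoter, chr17:48247542-48247728, plus strand: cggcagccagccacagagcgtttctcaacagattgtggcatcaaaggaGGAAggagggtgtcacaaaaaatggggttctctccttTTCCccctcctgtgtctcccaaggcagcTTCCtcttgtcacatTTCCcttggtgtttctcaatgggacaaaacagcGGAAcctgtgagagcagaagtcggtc
Treml2 promoter (-569 bp), chr17:48299271-48299470, plus strand: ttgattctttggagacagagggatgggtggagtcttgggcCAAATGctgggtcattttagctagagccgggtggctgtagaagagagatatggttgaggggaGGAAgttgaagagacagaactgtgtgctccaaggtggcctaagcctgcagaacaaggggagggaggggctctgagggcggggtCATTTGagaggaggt
B430306N03Rik promoter, chr17:48316012-48316140, plus strand: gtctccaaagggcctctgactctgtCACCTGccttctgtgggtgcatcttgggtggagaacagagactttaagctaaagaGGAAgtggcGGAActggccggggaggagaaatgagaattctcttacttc
Trem2 promoter, chr17:48346315-48346400, plus strand: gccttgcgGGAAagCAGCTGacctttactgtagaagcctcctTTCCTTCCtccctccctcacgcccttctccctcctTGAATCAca

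Every one of the 9 sites called in at least 1 comparison held an ETS core in its 200-base window, as did all 16 other sites and 90.7% of the windows of all 89975 regions. A GATA match was present at 1 of the 9 called sites, Trem1 -1.9 kb, and at 9 of the 16 sites that were not called, against 26.3% of all windows. RUNX was matched at 1 of the 9 called sites and 2 of the 16 others (24.6% of all windows), and the E-box at 5 of 9 and 11 of 16 (66.5%). AP-1 was matched at Trem1 +2.0 kb and the Trem2 promoter, so at 2 of the 9 called sites and at none of the 16 others, against 11.2% of all windows. A C/EBP match was found at B430306N03Rik +8.3 kb and the Trem2 promoter, 2 of 9, and at 1 of the 16 others, against 11.3% of all windows; the match of the Trem2 promoter falls in the exon that is not printed. A match describes letters in a window and is not evidence of binding.

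Peak lists hold no read counts, so the depth of a library is unknown. The number of peaks, which does not measure depth, lay between 50195 in GATA2 replicate 1 and 112267 in hi-77+/+ empty replicate 2, and 49000 were used from each. Its mean was 90108 in hi-77+/+ empty, 69150 in hi-77-/- empty, 63873 in GATA2 and 92152 in 9aa-Ins. Presence in a full list therefore also depends on the length of that list. For each library the rank of a peak was turned into a rank score of 100 for the most significant of its 49000 peaks, falling evenly with rank, and 0 where the site had no peak among them. A score of 0 therefore means not listed, not closed. Within-group correlations of the score over all regions lay between 0.893 and 0.952. In a bulk library a higher score can come from more cells with an open site or from more accessible DNA per cell, and these cannot be told apart.

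The labelled cell type was checked by promoter peaks. Of 8 genes used as markers of hematopoietic progenitors, among them Kit, Cd34, Runx1 and Spi1, 7 had a promoter peak in all 16 libraries, and Mpo had one in 15. The 3 hepatocyte markers, the 2 endothelial markers, Cd3e, Cd8a and Klf1 had none in any library. A promoter peak is a loose mark of a cell type, since the B cell gene Pax5, the T cell gene Cd3d and the stromal gene Pdgfra had one in all 16 libraries and Col1a1 in 15. Of the 5 macrophage or monocyte markers, Adgre1, Cd68 and Lyz2 had a peak in every library. The Csf1r promoter was listed in 0 of 4 hi-77+/+ empty, 4 of 4 hi-77-/- empty, 0 of 4 GATA2 and 4 of 4 9aa-Ins libraries, and Itgam in 0, 3, 0 and 1.

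Several of these markers moved with the Trem sites. The summed score of the 5 macrophage or monocyte markers ranged from 143 to 194 in hi-77+/+ empty, 196 to 269 in hi-77-/- empty, 154 to 199 in GATA2 and 247 to 324 in 9aa-Ins. The 4 neutrophil markers summed to 54.3 to 69.1, 37.7 to 89.9, 0 to 69.8 and 106 to 176 in the same order, with S100a8 listed only in 3 of the 9aa-Ins libraries. The 8 progenitor markers summed to 562 to 616, 666 to 685, 637 to 653 and 667 to 683. The 3 B cell markers summed to 44.7 to 105, 142 to 164, 93.8 to 96.3 and 121 to 155. The part of cell composition in the differences below was not tested. The mean score over chromosome 17 was 25.4, 26.5, 25.8 and 27.2 in the 4 groups. Each library was scored on the same even scale over an equal number of peaks, which largely fixes such a mean in advance. Its small spread therefore says nothing about the differences at single sites.

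Peaks covered more of the Trem window in the 9aa-Ins libraries than in any other library. They covered 5209 ± 397 bp in hi-77+/+ empty, 6333 ± 408 bp in hi-77-/- empty, 4630 ± 558 bp in GATA2 and 8320 ± 787 bp in 9aa-Ins (SD, n = 4 libraries each). The lowest 9aa-Ins library, at 7575 bp, lay above the highest hi-77-/- empty library, at 6718 bp, and the GATA2 libraries, from 3940 to 5258 bp, all lay below the lowest hi-77-/- empty library, at 5907 bp. The hi-77+/+ empty libraries, from 4945 to 5794 bp, overlapped with the GATA2 libraries. Peak width moved with this measure over the whole genome: the median width of the 49000 peaks was 213 to 262 bp in hi-77+/+ empty, 245 to 278 bp in hi-77-/- empty, 178 to 246 bp in GATA2 and 294 to 378 bp in 9aa-Ins. The part of this width in the bases covered and in the peak widths of single sites was not tested.

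Of the 14 sites in or near the 6 genes, 5.25 ± 1.26 had a peak in a hi-77+/+ empty library, 8.25 ± 1.26 in hi-77-/- empty, 5.75 ± 0.957 in GATA2 and 10.0 ± 0.816 in 9aa-Ins. Over all 25 sites the shares with a peak were 46.0%, 55.0%, 41.0% and 62.0%. These are descriptions of the window, without a test.

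**Figure D1:**
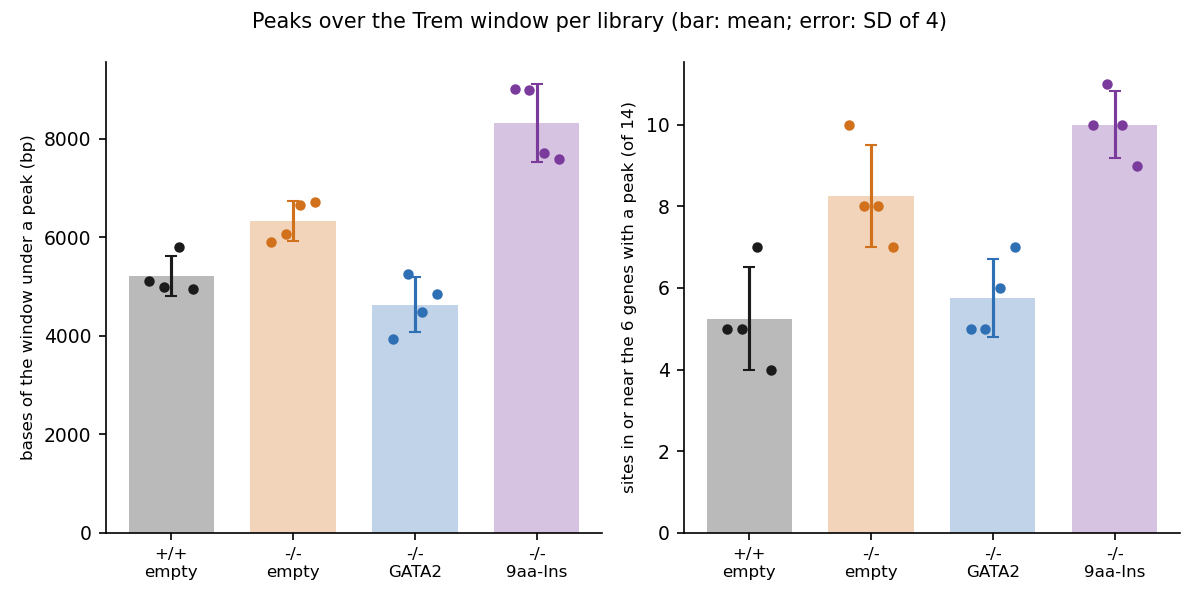
Bases of the Trem window under a peak (left, bp) and number of the 14 sites in or near the 6 genes with a peak (right) in each library; points are libraries, bars the group mean and error bars the SD of 4 libraries. The 9aa-Ins libraries lie highest in bases covered, from 7575 to 9013 bp, and the GATA2 libraries run from 3940 to 5258 bp.

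Among the 25 sites, 7 were listed in every library and 7 in only 1. The sites that all libraries shared included the Trem1 promoter, the 2 Treml2 promoter sites and Treml4 +10.7 kb. The full deposited lists added 25 weaker sites, of which 12 were listed in a single library and none in more than 6. The plot of group means along the cluster shows the signal gathered at Trem1, at Treml2 and, outside the cluster, at the Nfya promoter, which reaches over the Oard1 start and scored between 97.2 and 99.8 in every library.

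**Figure D2:**
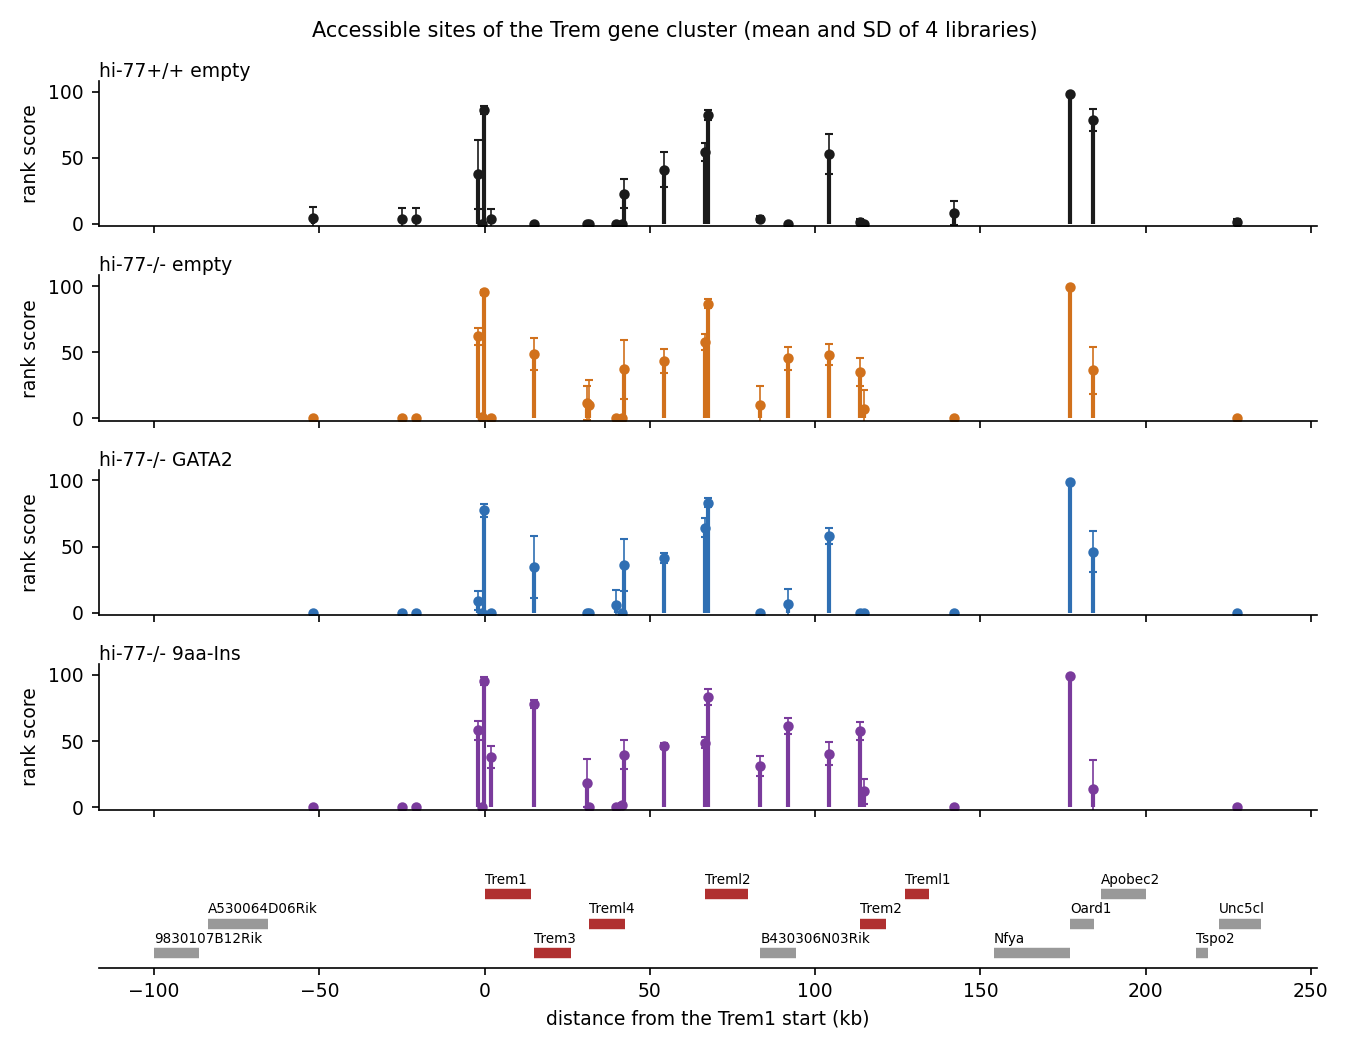
Mean rank score (vertical axis, 0 to 100) of each of the 25 sites against the distance from the Trem1 start (kb), in 1 panel per group, with gene bodies below (red: the 6 Trem and Treml genes; grey: other protein-coding genes); error bars are the SD of 4 libraries. The Trem3 promoter is at 0 in hi-77+/+ empty and at 48.4, 34.6 and 78.0 in the hi-77-/- empty, GATA2 and 9aa-Ins groups.

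The 4 comparisons were tested with limma over all 89975 regions, with Benjamini-Hochberg adjustment over all of them and a call at an adjusted p under 0.05. The promoters of Trem1, Trem3 and Trem2 were called higher in hi-77-/- empty than in hi-77+/+ empty, as was a site in the neighboring B430306N03Rik. These sites were 16% of the window, near the 12.2% of all regions called higher. With GATA2, the Trem1 and Trem2 promoters, the B430306N03Rik site and the upstream Trem1 site fell. With 9aa-Ins no site was called lower than in hi-77-/- empty, and 7 sites were called higher than with GATA2. The comparisons share libraries: hi-77-/- empty enters the first 3 of them, and the GATA2 and 9aa-Ins libraries enter 2 each.

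In hi-77-/- empty against hi-77+/+ empty, 4 of the 25 sites were called higher, 16%, against 12.2% of all regions, and 1 lower, 4%, against 11.5%. In GATA2 against hi-77-/- empty, 4 were called lower, 16%, against 7.03%, and 0 higher, against 4.98%. By limma no site of the window was higher with GATA2 even at an unadjusted p under 0.05, and by the exact permutation test none was either.

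In 9aa-Ins against hi-77-/- empty, 1 site was called higher, 4%, against 2.93% of all regions, and 0 lower, against 0.864%. Without adjustment, 5 sites passed 0.05 as higher in limma and 4 in the exact permutation test, and none as lower in either. In 9aa-Ins against GATA2, 7 of 25 sites, 28.0%, were called higher, against 9.33%, and 1, 4%, lower, against 4.88%. The median difference over the 25 sites was 2.05, -1.01, 0 and 0.133 points in the 4 comparisons, and over all regions it was 0 in each.

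**Figure D3:**
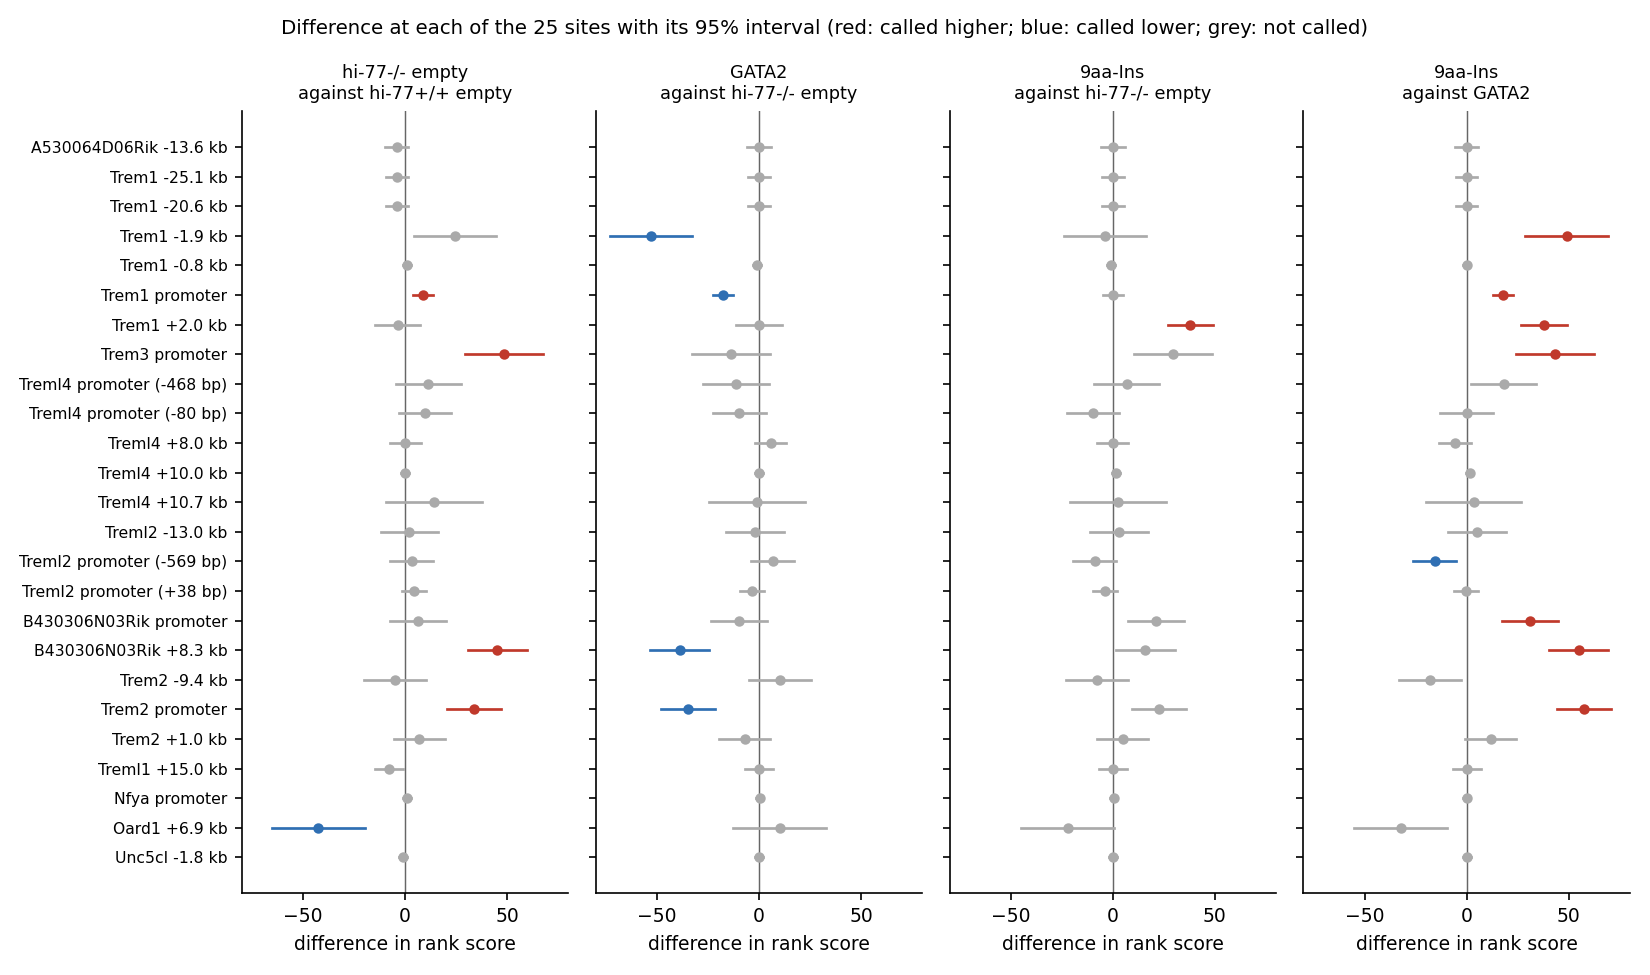
Difference in rank score (points) at each of the 25 sites in the 4 comparisons, ordered along the chromosome; bars are 95% intervals from the limma fit, red and blue mark sites called higher and lower and grey sites not called. The blue GATA2 calls at Trem1 -1.9 kb, the Trem1 promoter, B430306N03Rik +8.3 kb and the Trem2 promoter have red calls in the last panel, where 9aa-Ins is set against GATA2.

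Presence alone gave a stricter view, with a peak in 4 of 4 libraries of one group and 0 of 4 of the other. Only in hi-77-/- empty and not in hi-77+/+ empty were the Trem3 promoter and B430306N03Rik +8.3 kb, 2 of 25 sites, against 3.60% of all regions, and 0 sites showed the opposite, against 2.11%. The Trem2 promoter was present in every hi-77-/- empty and no GATA2 library (1 of 25, against 2.28%), and 0 sites the other way (1.71%). Trem1 +2.0 kb was present in every 9aa-Ins and no hi-77-/- empty library (1 of 25, against 1.38%), and 0 sites the other way (0.157%). Trem1 +2.0 kb, the B430306N03Rik promoter and the Trem2 promoter were present in every 9aa-Ins and no GATA2 library (3 of 25, against 2.98%), and 0 sites the other way (1.46%). The full lists did hold some of these sites in the group without them. The Trem3 promoter was in 2 of 4 hi-77+/+ empty full lists and B430306N03Rik +8.3 kb in 1 of 4. The B430306N03Rik promoter was in 1 of 4 GATA2 full lists.

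Trem1 (ENSMUSG00000042265.13, chr17:48232768-48246924) had a high-ranking promoter, with a peak in all 16 libraries at chr17:48232205-48232986. Its rank scores were 86.9, 88.0, 88.2 and 81.9 in hi-77+/+ empty, 94.1, 96.7, 92.5 and 97.2 in hi-77-/- empty, 79.8, 77, 70.6 and 82.5 in GATA2 and 98.9, 95.9, 91.8 and 93.8 in 9aa-Ins. Every hi-77-/- empty library lay above every hi-77+/+ empty library, and every GATA2 library lay below every hi-77-/- empty library. The difference of hi-77-/- empty from hi-77+/+ empty was 8.82 points (SE 2.34, limma adjusted p = 0.00988), that of GATA2 from hi-77-/- empty -17.7 (SE 2.34, limma adjusted p = 4.16e-05) and that of 9aa-Ins from GATA2 17.7 (SE 2.34, limma adjusted p = 4.57e-05).

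The Trem1 promoter did not pass the test between 9aa-Ins and hi-77-/- empty, where the difference was 0.0209 points with a 95% interval from -4.92 to 4.96. On the authors' own scale, the fold enrichment of this peak over the library background ran from 18.4 to 22.1 in hi-77+/+ empty, 27.8 to 37.8 in hi-77-/- empty, 12.2 to 21.8 in GATA2 and 36.4 to 49.8 in 9aa-Ins, and its width from 366 to 543, 582 to 739, 263 to 348 and 574 to 696 bp. On both measures the hi-77-/- empty and 9aa-Ins libraries lay above the libraries of the other groups, but both also depend on the depth of a library and are given as a description. The call between the genotypes was lost with all deposited peaks, when peaks of 1 kb or wider were left out and with peaks covering at least 50% of the site, with adjusted p up to 0.176.

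Upstream of Trem1, the intergenic site Trem1 -1.9 kb (chr17:48230597-48231104) separated GATA2 from the other hi-77-/- groups. It scored 44.7, 60, 45.2 and 0 in hi-77+/+ empty, 56.6, 70.2, 57.7 and 63.4 in hi-77-/- empty, 7.90, 0, 16.7 and 11.7 in GATA2 and 55.4, 64.0, 49.2 and 63.9 in 9aa-Ins. The GATA2 libraries all lay below the libraries of hi-77-/- empty and 9aa-Ins, whereas hi-77+/+ empty overlapped with every other group. The difference of GATA2 from hi-77-/- empty was -52.9 points (SE 9.59, limma adjusted p = 8.68e-04), and 9aa-Ins was 49 above GATA2 (SE 9.59, limma adjusted p = 0.00156).

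The full lists held a peak at this upstream site in all 16 libraries, so the GATA2 libraries listed a low-ranking peak rather than none. The genotypes differed by 24.5 points (95% interval 4.25 to 44.7, limma adjusted p = 0.0769), which did not pass. Without hi-77+/+ empty replicate 2 that difference was 32.0 with an adjusted p of 0.0218, with regions required to have a peak in at least 4 libraries it was 24.5 with an adjusted p of 0.0484, and with the top 25000 peaks 20.1 with an adjusted p of 0.0463. The call of 9aa-Ins against GATA2 was lost with the top 25000 peaks (18.2 points, adjusted p = 0.110).

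An intronic site of Trem1, Trem1 +2.0 kb (chr17:48234586-48235033), was the only site of the window called in 9aa-Ins against hi-77-/- empty. It scored 25.9, 42.9, 43.0 and 40.7 in 9aa-Ins, 14.7 in hi-77+/+ empty replicate 3 and 0 in the other 11 libraries. The 9aa-Ins libraries lay above all others. The difference was 38.1 points from hi-77-/- empty (SE 5.32, limma adjusted p = 2.79e-04) and 38.1 from GATA2 (SE 5.32, limma adjusted p = 6.72e-05).

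In the full lists all 4 hi-77+/+ empty and all 4 9aa-Ins libraries held this intronic site, and no hi-77-/- empty or GATA2 library did. With all deposited peaks, hi-77-/- empty was lower than hi-77+/+ empty there, with a difference of -24.6 points (limma adjusted p = 0.0295). The full lists of hi-77+/+ empty and 9aa-Ins were also the longest on average. The part of list length in these results was not tested. The remaining Trem1 site, Trem1 -0.8 kb, was listed in hi-77-/- empty replicate 1 alone, with a score of 4.05, and in the full lists in 3 of the 4 9aa-Ins libraries and 1 library of each empty group.

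Trem3 (ENSMUSG00000041754.5, chr17:48247777-48258841), which starts less than 1 kb past the end of Trem1 and encodes another receptor that signals through DAP12, had 1 site, its promoter at chr17:48247043-48247959. It was at 0 in the 4 hi-77+/+ empty libraries, at 44.3, 50.7, 35.2 and 63.4 in hi-77-/- empty, at 0, 45.9, 43.9 and 48.7 in GATA2 and at 77.3, 77.1, 82.5 and 75.3 in 9aa-Ins. All hi-77-/- empty libraries lay above hi-77+/+ empty and all 9aa-Ins libraries above both, while 3 of the 4 GATA2 libraries lay within the range of hi-77-/- empty. The difference was 48.4 points between the genotypes (SE 9.04, limma adjusted p = 6.83e-04) and 43.4 between 9aa-Ins and GATA2 (SE 9.04, limma adjusted p = 0.00260).

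Unlike the Trem1 and Trem2 promoters, the Trem3 promoter was not called in GATA2 against hi-77-/- empty, with a difference of -13.8 points (95% interval -32.8 to 5.31, limma adjusted p = 0.411); whether the promoters differ in this response was not tested. GATA2 replicate 1, the library with the fewest peaks, stood apart from the other 3 there. In 9aa-Ins against hi-77-/- empty the difference was 29.7 points (95% interval 10.6 to 48.7, limma adjusted p = 0.0895, exact permutation p = 0.0286, the smallest p that 4 against 4 libraries allow), and without GATA2 replicate 1, which enters only the shared spread, the adjusted p was 0.00651. With only the 8 libraries compared it was 0.00816. The call between the genotypes was lost with the top 25000 peaks and with peaks covering at least 50% of the site, where the latter gave a difference of 0.

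Trem2 (ENSMUSG00000023992.14, chr17:48346401-48354147), the lipid-binding receptor, had a promoter site at chr17:48346244-48346733 with its summit in the first exon, 14 bp past the start. It scored 0, 0, 4.56 and 0 in hi-77+/+ empty, 23.9, 41.8, 28.0 and 45.6 in hi-77-/- empty, 0 in all 4 GATA2 libraries and 59.2, 66.7, 51.9 and 52.4 in 9aa-Ins. The hi-77-/- empty libraries lay above both hi-77+/+ empty and GATA2, and the 9aa-Ins libraries above all others. In each of the 3 called comparisons the difference was over 30 points: 33.7 between the genotypes (SE 6.26, limma adjusted p = 6.20e-04), -34.8 for GATA2 from hi-77-/- empty (SE 6.26, limma adjusted p = 7.62e-04) and 57.6 for 9aa-Ins from GATA2 (SE 6.26, limma adjusted p = 6.26e-06).

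The rise of the Trem2 promoter from hi-77-/- empty to 9aa-Ins, 22.8 points (95% interval 9.57 to 36.0), narrowly missed the threshold with a limma adjusted p of 0.0517. Without hi-77-/- empty replicate 4 it was 26.3 points with an adjusted p of 0.0341, and it also passed with a filter of 4 libraries (adjusted p = 0.0432), with ties ranked by position (0.0389) and with peaks covering at least 50% of the site (0.0106), a setting under which the fall with GATA2 lost its call (-23.4 points, adjusted p = 0.0707). The full lists put a peak there in every hi-77+/+ empty library, mostly below the top 49000, and in no GATA2 library. With the top 25000 peaks, no library of hi-77+/+ empty, hi-77-/- empty or GATA2 held it, and the differences among these groups were 0.

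A further intronic site, Trem2 +1.0 kb (chr17:48347387-48347608), scored 28.0 in hi-77-/- empty replicate 3 and 14.5, 22.4, 10.1 and 0 in 9aa-Ins, and 0 in the other libraries. In the full lists it was present in 4 of 4 hi-77-/- empty, 4 of 4 9aa-Ins, 1 of 4 hi-77+/+ empty and no GATA2 library. It was called in no comparison among the top 49000 peaks, and with all deposited peaks 9aa-Ins was 45.9 points above GATA2 (limma adjusted p = 0.00538). The intergenic site Trem2 -9.4 kb, listed in every library, ran the other way, from 50.8, 42.9, 30.3 and 36.8 in 9aa-Ins to 58.7, 54.8, 66.4 and 52.8 in GATA2, without overlap, but the difference of -18.0 (95% interval -33.1 to -2.81, limma adjusted p = 0.121) did not pass.

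Treml4 (ENSMUSG00000051682.15, chr17:48264295-48275360), a receptor of macrophages and dendritic cells, had 5 sites and no call among the top 49000 peaks. Its promoter site at -468 bp (chr17:48263664-48264060) scored 23.9, 21.5, 0 and 0 in hi-77-/- empty, 38.7, 27.5, 0 and 6.35 in 9aa-Ins and 0 in all hi-77+/+ empty and GATA2 libraries. The groups overlapped at 0. In the full lists it was present in 4 of 4 hi-77-/- empty and 4 of 4 9aa-Ins libraries and in none of the others, and with all deposited peaks it was called higher in hi-77-/- empty than in hi-77+/+ empty (35.0 points, limma adjusted p = 0.0115), lower in GATA2 than in hi-77-/- empty (-35.0, limma adjusted p = 0.0219) and higher in 9aa-Ins than in GATA2 (50, limma adjusted p = 8.11e-04). Among the top 49000 peaks it passed only in 9aa-Ins against GATA2 without 9aa-Ins replicate 3 (24.2 points, adjusted p = 0.0474).

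The other Treml4 sites were listed in few libraries or overlapped between groups. Treml4 -80 bp was listed in hi-77-/- empty replicate 1 alone (38.7), Treml4 +8.0 kb in GATA2 replicate 4 alone (22.7) and Treml4 +10.0 kb in 9aa-Ins replicates 2 and 3 (3.07 and 2.89), and with all deposited peaks the last was called higher in 9aa-Ins than in hi-77-/- empty (32.1 points, limma adjusted p = 0.0185) and than in GATA2 (43.7, limma adjusted p = 6.44e-04). At the end of the gene, Treml4 +10.7 kb was listed in every library, with scores between 7.06 and 60.6, and its difference between the genotypes was 14.2 points with a 95% interval from -9.20 to 37.6.

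Treml2 (ENSMUSG00000071068.7, chr17:48299498-48312533), known from B cells and macrophages, had promoter peaks in every library. Its sites at +38 bp and -569 bp are named from different protein-coding transcript starts, neither of which is the gene start given here. Their median summits lay at 48300424 and 48299371. Its site at +38 bp (chr17:48299846-48301436) scored 86.0, 84.3, 80.2 and 78.6 in hi-77+/+ empty, 90.6, 82.3, 87.6 and 85.9 in hi-77-/- empty, 78.2, 85.2, 83.8 and 85.2 in GATA2 and 81.1, 87.4, 88.0 and 75.3 in 9aa-Ins. The 4 groups overlapped, and the 4 differences lay between -3.66 and 4.34 points, with 95% intervals from -9.59 at the lowest to 10.3 at the highest.

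The second Treml2 site, at -569 bp (chr17:48299168-48299585), was the only site of the window called lower in 9aa-Ins than in GATA2. It scored 53.9, 50.1, 64.2 and 49.3 in hi-77+/+ empty, 49, 62.3, 57.7 and 61.5 in hi-77-/- empty, 68.2, 70.7, 54.0 and 64.2 in GATA2 and 50.8, 53.3, 46.3 and 44.1 in 9aa-Ins. The 9aa-Ins and GATA2 libraries did not overlap, but 53.3 and 54.0 nearly met. The difference was -15.7 (SE 5.02, limma adjusted p = 0.0446), and the call was lost in 11 of the 16 fits that left out 1 library, with adjusted p up to 0.131, and under 6 of the 10 other settings.

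Treml1 (ENSMUSG00000023993.7, chr17:48359916-48367176), the platelet receptor, had no site in its body or within 3 kb, neither among the top 49000 peaks nor in the full lists. The nearest site, Treml1 +15.0 kb, lay past the end of the gene and was listed in 2 hi-77+/+ empty libraries. Of the 3 platelet markers, Itga2b had a promoter peak in all 16 libraries, Gp9 in 12 and Pf4 in 1.

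B430306N03Rik (chr17:48316141-48327024), a protein-coding gene between Treml2 and Trem2 that is no member by name, held a pair of called sites. B430306N03Rik +8.3 kb (chr17:48324180-48324794), with its summit in an exon, in the UTR, was at 0 in all hi-77+/+ empty libraries, 49, 41.8, 35.2 and 54.9 in hi-77-/- empty, 1.76, 23.6, 0 and 0 in GATA2 and 55.4, 60.9, 69.8 and 58.8 in 9aa-Ins. No group overlapped with hi-77-/- empty or with 9aa-Ins. The difference was 45.2 points between the genotypes (SE 6.85, limma adjusted p = 9.03e-05), -38.9 for GATA2 from hi-77-/- empty (SE 6.85, limma adjusted p = 6.24e-04) and 54.9 for 9aa-Ins from GATA2 (SE 6.85, limma adjusted p = 2.37e-05), and 16 for 9aa-Ins from hi-77-/- empty, which did not pass (95% interval 1.56 to 30.4, limma adjusted p = 0.304).

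The first 2 of these calls were lost with the top 25000 peaks and with peaks covering at least 50% of the site. The B430306N03Rik promoter (chr17:48315959-48316395) scored 3.60, 0, 4.56 and 5.49 in hi-77+/+ empty, 0, 0, 7.98 and 31.4 in hi-77-/- empty, 0 in all GATA2 libraries and 20.6, 35.9, 30.3 and 36.8 in 9aa-Ins. It was called only in 9aa-Ins against GATA2 (30.9 points, SE 6.51, limma adjusted p = 0.00276). Against hi-77-/- empty the 9aa-Ins libraries were 21.1 points higher (95% interval 7.38 to 34.8, limma adjusted p = 0.0940), and without hi-77-/- empty replicate 4, the library at 31.4, the difference was 28.3 with an adjusted p of 0.00636.

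**Figure D4:**
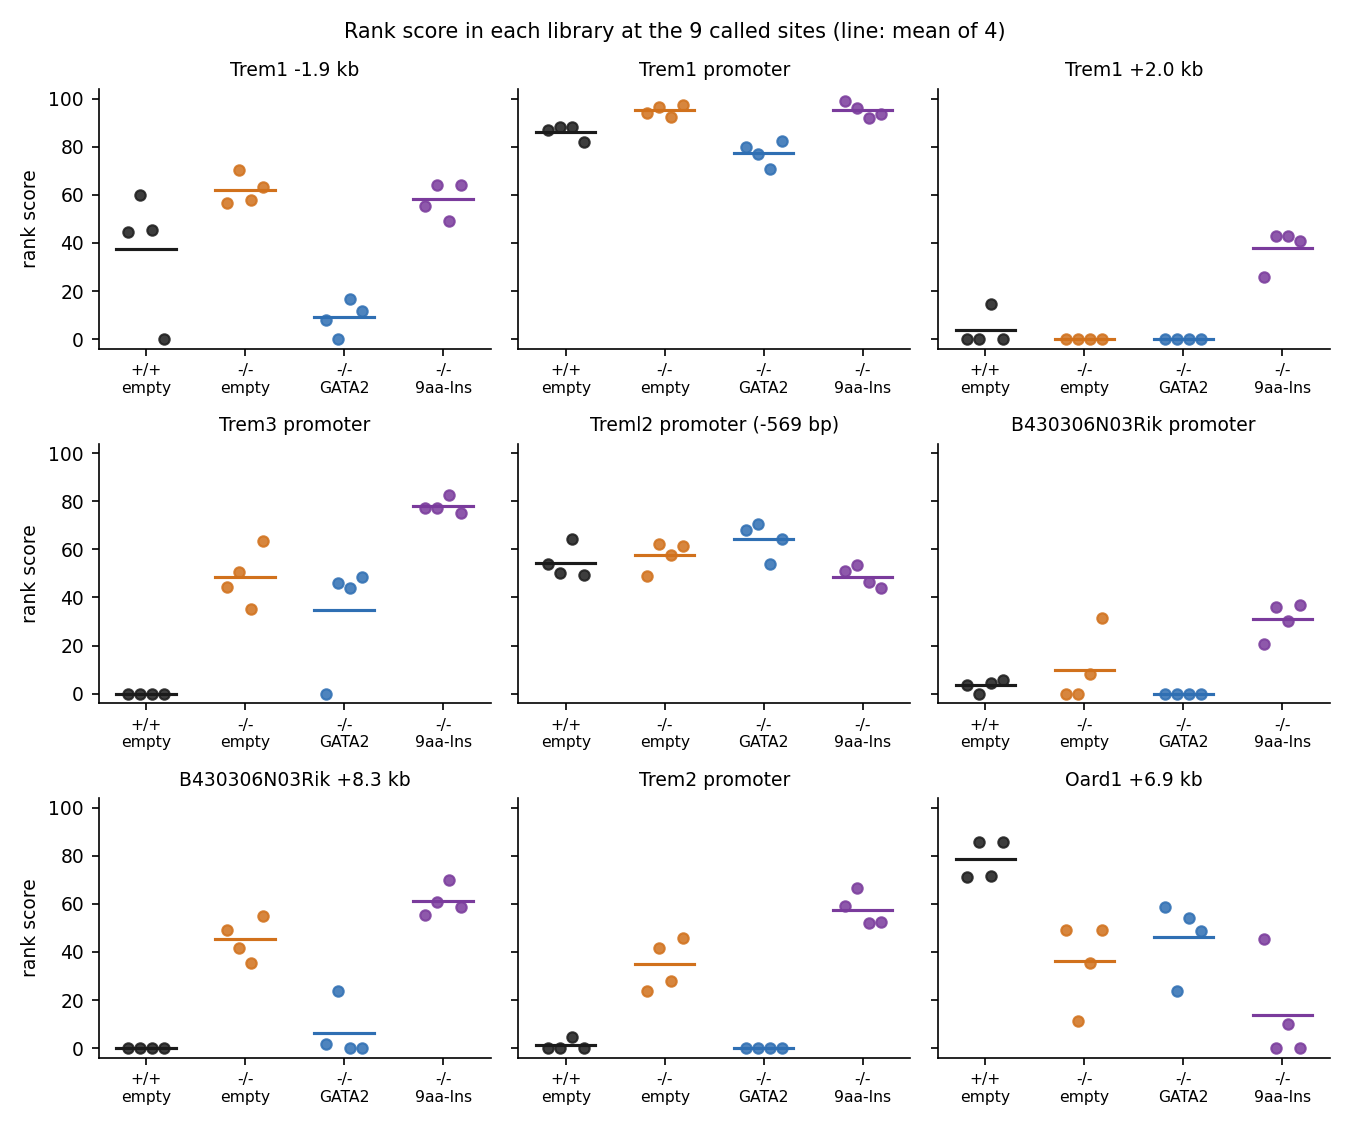
Rank score of each library (vertical axis, 0 to 100) at the 9 sites called in at least 1 comparison; each point is a library, lines are means of 4. At the Trem2 promoter the GATA2 libraries are all at 0 and the 9aa-Ins libraries between 51.9 and 66.7, whereas at Treml2 -569 bp the 4 groups lie close together.

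Apart from the pair in B430306N03Rik, 1 site away from the Trem genes was called. Oard1 +6.9 kb (chr17:48416816-48417103), in a UTR of Oard1, scored 71.3, 85.7, 71.5 and 85.9 in hi-77+/+ empty, 49, 11.1, 35.2 and 49.1 in hi-77-/- empty, 58.7, 23.6, 54.0 and 48.7 in GATA2 and 45.4, 0, 10.1 and 0 in 9aa-Ins. The hi-77+/+ empty libraries lay above all others, opposite to the Trem promoters, and the difference of hi-77-/- empty from them was -42.5 (SE 10.8, limma adjusted p = 0.00729). The difference of 9aa-Ins from GATA2 was -32.4 (95% interval -55.1 to -9.66), with a limma adjusted p of 0.0544. It passed, with adjusted p between 0.00684 and 0.0357, without hi-77-/- empty replicate 2, GATA2 replicate 2 or 9aa-Ins replicate 1, with the replicate block (adjusted p = 0.0356) and with a filter of 4 libraries (adjusted p = 0.0310).

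The order of the 3 DAP12-coupled receptors' promoters by mean score was the same in hi-77-/- empty and 9aa-Ins, with Trem1 at 95.1 and 95.1, Trem3 at 48.4 and 78.0 and Trem2 at 34.8 and 57.6. In hi-77-/- empty the Trem3 and Trem2 libraries overlapped, and in 9aa-Ins they did not. In GATA2 the means were 77.4, 34.6 and 0, and in hi-77+/+ empty 86.3, 0 and 1.14. Scores are ranks within a library, and differences between promoters are read in that sense only.

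Promoters elsewhere in the genome followed these patterns over the 16 libraries, among 15673 promoter regions compared. Most like the Trem1 promoter was Zdhhc18, with a Pearson correlation of 0.942 and group means of 54.2, 91.6, 26.2 and 84.0 in hi-77+/+ empty, hi-77-/- empty, GATA2 and 9aa-Ins. It was followed by Dazap1 (0.922) and Gm10160 (0.911). For the Trem2 promoter the closest were Pde4dip (0.958), Rapgef2 (0.953) and Tnk2 (0.943), and for the Trem3 promoter Plec (0.957), Cracr2b (0.947) and Mrgpra9 (0.946). A correlation does not compare levels: Plec had means of 82.8, 89.4, 88.1 and 93.7 in the same group order, high in every group unlike the Trem3 promoter.

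Treml2 had less close partners, Tsfm (0.758) for the site at +38 bp and Abcb4 (0.810) for that at -569 bp. The closest to Treml4 -468 bp was Sdk2 (0.870), and promoters listed in the same single library as Treml4 -80 bp reached a correlation of 1 by that fact alone. These correlations describe 16 libraries of 4 groups, which share their group means, and were picked as the highest of many.

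The genes through which TREM receptors signal were read in the same fit, at the regions within 3 kb of their starts. The list held 49 genes with 159 regions: adaptors, kinases and phosphatases, linkers and effectors, ligands, and other receptors that use DAP12. In hi-77-/- empty against hi-77+/+ empty, 30 regions (18.9%, against 12.2% of all regions) were higher and 12 (7.55%, against 11.5%) lower. In GATA2 against hi-77-/- empty, 10 (6.29%) were higher and 13 (8.18%) lower, and in 9aa-Ins against GATA2 17 (10.7%) higher and 8 (5.03%) lower, close to the shares of all regions. In 9aa-Ins against hi-77-/- empty limma called 5 (3.14%, against 2.93% of all regions) higher and 0 (against 0.864%) lower, with 13 and 2 at an unadjusted p under 0.05. The genes named below were chosen after their values were seen, and Csf1r and Ptprc are also among the cell type markers.

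**Figure D5:**
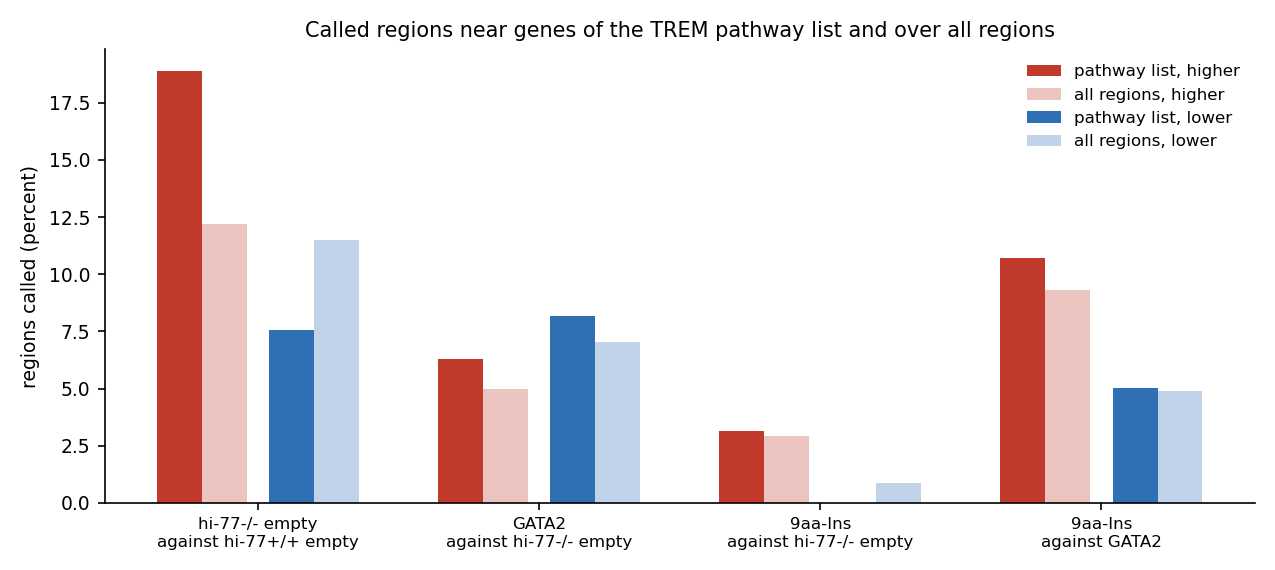
Percent of regions called higher (red) and lower (blue) in each comparison among the 159 regions near the 49 genes of the TREM pathway list (dark bars) and among all 89975 regions (pale bars). The list stands above the whole in the genotype comparison, 18.9% against 12.2% higher, and near it in the other 3.

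Both adaptor genes had regions called higher in hi-77-/- empty than in hi-77+/+ empty. These were 4 of 6 in all, 66.7%, against 12.2% of all regions. The Tyrobp promoter, at the gene for DAP12, ranged from 0 to 36.5 in hi-77+/+ empty, 56.6 to 63.4 in hi-77-/- empty, 11.7 to 52.8 in GATA2 and 42.2 to 60.9 in 9aa-Ins. Its difference was 40.8 points between the genotypes (limma adjusted p = 0.00265), and that of GATA2 from hi-77-/- empty, -23.9, did not pass (limma adjusted p = 0.108). At Hcst, which encodes the adaptor DAP10 beside Tyrobp, the promoter differed by 19.2 points between the genotypes (limma adjusted p = 0.00469) and by -2.03 with GATA2 (limma adjusted p = 0.988).

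Of the 11 kinase and phosphatase genes, 4 (among them Inpp5d and Ptpn6) had a region called higher and 2 (Lyn and Src) a region called lower between the genotypes. These were 5 (17.2%, against 12.2% of all regions) and 2 (6.90%, against 11.5%) of their 29 regions. At Syk, the kinase that DAP12 recruits, a region about 2 kb before a start had means of 6.18, 0, 1.99 and 45.7 in the 4 groups and was called higher in 9aa-Ins than in hi-77-/- empty, by 45.7 points, and than in GATA2, by 43.7.

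Of the 20 linkers and effectors, 9 had a region called higher and 7 a region called lower between the genotypes, with Vav1, Plcg1 and Nfatc1 in both. These were 10 (11.5%) and 8 (9.20%) of their 87 regions, no larger shares than among all regions. A Vav1 region, at the gene of a guanine nucleotide exchange factor, had means of 0, 27.7, 0.440 and 59.3 and was called in all 4 comparisons. Of the 19 regions of the 6 ligand genes, 2 (10.5%) were called higher and 2 (10.5%) lower between the genotypes, with Actb in both directions and another ligand gene only lower. The promoter of Pglyrp1, whose product binds Trem1, ranged from 0 to 32.8, 32.0 to 64.5, 28.0 to 54.8 and 62.5 to 76.2 in the 4 groups, higher by 29.8 points between the genotypes and by 28.1 in 9aa-Ins than in GATA2.

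Of the 10 other receptors that use DAP12 or resemble those that do, limma called a region of 5 higher between the genotypes, together 9 of their 18 regions (50%, against 12.2% of all regions), and 0 regions lower (against 11.5%). At an unadjusted p under 0.05 it had the same numbers, 9 higher and 0 lower. With GATA2, 3 regions (16.7%, against 4.98%) were called higher and 4 (22.2%, against 7.03%) lower. A Clec5a region centred at -2780 bp, at a myeloid lectin receptor, had means of 0, 43.5, 5.68 and 70.8 and was called in all 4 comparisons. The Csf1r promoter, at the receptor for macrophage colony-stimulating factor, was at 0 in all hi-77+/+ empty and GATA2 libraries, between 16.9 and 53.0 in hi-77-/- empty and between 35.1 and 54.8 in 9aa-Ins. The opposite pattern also occurred: at Pilrb1 and Pilrb2 the promoters had means of 44.4 and 55.1 in GATA2 and of 5.21 and 1.99 in hi-77-/- empty, and were called higher with GATA2.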

How the data were processed

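ATAC-Seq was done on 16 libraries of immortalized mouse progenitors, 4 in each of 4 groups, and each library has 1 peak list. According to the methods and the submitters' processing notes, the authors trimmed reads with Trim Galore 0.4.1, aligned them to mm10 with Bowtie2 2.2.5, removed duplicates with Picard 2.26.0, kept uniquely aligned reads, shifted them by +4 or -5 bp for the Tn5 offset and called peaks with MACS2 in each library separately. The deposited columns are a whole-number score (10 times the -log10 q-value), a fold enrichment ratio of signal over background, the -log10 p-value and the -log10 q-value of each peak, and a summit offset. No read counts were used, so depth, which affects the p-value and fold of a peak, is unknown.

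The top 49000 peaks per library by -log10 p were ranked (ties, up to 13.6% of a library, share a mean rank), merged where they overlapped by 1 bp and scored from 100 down to 0. limma 3.58.1 in R 4.3.3 (trend and robust, 1 term per group, all 16 libraries) was fitted over 89975 regions, instead of a count test. Exact two-sided permutation tests over 4 against 4 libraries cannot go below 0.0286. On simulated data for GATA2 against hi-77-/- empty, over 89975 regions, the fit recovered 50% of 200 shifts of 40 points and 10.5% of 200 shifts of 20 points, with 2.91% and 8.7% of its calls false. The simulation drew normal noise and moved only 200 regions of middle mean score. Its shares therefore do not carry over to sites where many libraries score 0. Python 3.11.15 was used for the rest. The merged regions were not rebuilt for the alternatives, but those left without a peak, or under the filter of 4 libraries, dropped out of the fit. The alternatives were all peaks, 25000 peaks, peaks under 1 kb, 50% cover, -log10 q of at least 5, rank by fold, a filter of 4 libraries, 8 libraries only, a replicate block, each library left out, and ties by position, the last chosen after seeing the data. Named in full are sites within 3 kb of a member, and others that were called or whose groups did not overlap. The members and gene lists were chosen with earlier results of these data known. Sequences are of the RefSeq GRCm38 assembly.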

Additional observations from a re-analysis of the deposited data

Results flagged for a closer look

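In a group of 4 libraries, a library was marked where its gap to the nearest other, as a share of the group's range, exceeded Dixon's 95% critical value. Over the 18 named sites this held in 9 of the 50 groups that could be checked. Most of these are sites listed in a single library of the group, where the gap equals the whole range by construction. The number flagged therefore cannot be set against a chance rate. At Trem1 -0.8 kb hi-77-/- empty replicate 1 scored 4.05 and the others 0, and at Treml4 -80 bp the same library scored 38.7 and the others 0. At Trem1 +2.0 kb hi-77+/+ empty replicate 3 scored 14.7 against 0, at the Trem2 promoter it scored 4.56 against 0, and at Trem2 +1.0 kb hi-77-/- empty replicate 3 scored 28.0 against 0. GATA2 replicate 4 scored 22.7 at Treml4 +8.0 kb against 0.

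The remaining 3 were at sites called in at least 1 comparison, as were Trem1 +2.0 kb and the Trem2 promoter above. At Trem1 +2.0 kb 9aa-Ins replicate 1 scored 25.9 and the others 40.7 to 43.0. At the Trem3 promoter GATA2 replicate 1 scored 0 and the others 43.9 to 48.7. At B430306N03Rik +8.3 kb GATA2 replicate 2 scored 23.6 and the others 0 to 1.76. The causes were not tested.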

How the results depend on the processing

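Of 18 called differences, 17 kept their call in every one of the 16 fits that left out 1 library and Treml2 -569 bp did not. Leaving out 1 library, the number of called sites ran from 5 to 7 in hi-77-/- empty against hi-77+/+ empty, stayed at 4 in GATA2 against hi-77-/- empty, ran from 1 to 3 in 9aa-Ins against hi-77-/- empty (3 without hi-77-/- empty replicate 4, with the Trem2 and B430306N03Rik promoters added, and 2 without GATA2 replicate 1, with the Trem3 promoter added) and from 7 to 8 in 9aa-Ins against GATA2. With the top 25000 peaks the 4 comparisons called 3, 2, 2 and 5 sites in place of 5, 4, 1 and 8. With peaks covering at least 50% of a site they called 2, 2, 5 and 7, and with all deposited peaks 6, 5, 3 and 11. For 9aa-Ins against hi-77-/- empty, 2 sites were called with ties ranked by position, with a filter of 4 libraries and with only the 8 libraries compared. The cause was not tested.

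The difference at Treml2 -569 bp between 9aa-Ins and GATA2 turned from -15.7 to 0.313 with all deposited peaks and to 1.40 with peaks covering at least 50% of the site. The share of the 25 sites with a peak moved from 46.0%, 55.0%, 41.0% and 62.0% in hi-77+/+ empty, hi-77-/- empty, GATA2 and 9aa-Ins to 66.0%, 65.0%, 46.0% and 77% with all deposited peaks, to 26.0%, 29.0%, 25% and 32.0% with the top 25000 and to 36.0%, 37.0%, 20% and 57.0% with 50% cover. Ranking by fold enrichment gave the same scores.

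Same-numbered libraries deviated together little, with correlations of deviations between -0.0296 and 0.0772 over all regions. The highest was at replicate 1 of 9aa-Ins against GATA2, where the highest correlation with another number was -0.0169. No pairing by number was assumed, though such weak correlations cannot exclude one. With the replicate block the comparisons called 5, 4, 1 and 8 sites, and 17 of the 18 calls were kept, with Treml2 -569 bp lost (adjusted p = 0.0746) and Oard1 +6.9 kb gained in 9aa-Ins against GATA2 (adjusted p = 0.0356). Of 569 alternative values of 22 differences, 529 kept direction and side of the threshold, 28 lost the call, 10 gained it and 2 reversed. Depth limits what a score of 0 means, since the weakest peak used had a -log10 p between 5.35 and 11.7. By group it ran from 5.35 to 7.43 in GATA2, 7.38 to 8.13 in hi-77-/- empty, 8.34 to 9.70 in hi-77+/+ empty and 8.75 to 11.7 in 9aa-Ins. The GATA2 and 9aa-Ins libraries did not overlap in it. Its part in the differences between groups was not tested.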
